A study of Homo sapiens with 10 samples.

Results

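RCAN1 and 8 further genes of the calcineurin-NFAT pathway were followed through 10 RNA-Seq libraries of EA.hy926 cells, an established line made by fusing human umbilical vein endothelial cells with A549 lung carcinoma cells. The 9 genes, RCAN1, RCAN2, RCAN3, NFATC1, NFATC2, NFATC4, PPP3CA, PPP3CB and PPP3CC, were taken by symbol from the 27945 symbols of the deposited table. Where a symbol had several RefSeq transcripts, the one with the highest mean FPKM over the libraries stands for it. The group was chosen by the measured difference of RCAN1 upon VEGFC-LNC deletion in these libraries, and its other genes by their place in the pathway. Cells had been edited with CRISPR/Cas9 to remove the promoter of one of a pair of long noncoding RNAs. VEGFA-LNC starts in an intron of VEGFA and runs antisense to it, and VEGFC-LNC lies upstream of VEGFC. The libraries were 3 clones with the VEGFA-LNC deletion, 2 VEGFA-LNC controls, 3 clones with the VEGFC-LNC deletion and 2 VEGFC-LNC controls. The deletions were homozygous, each deletion library came from a single selected clone, and controls received the guide RNAs without Cas9 and passed the same selection. Whether the 2 controls of a set are separate clones is not given in the sources used here, so p-values may measure a technical spread on the control side. The lncRNAs are not named rows of the table and were not analysed here.

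Calcineurin is a phosphatase that calcium and calmodulin switch on. It is built of a catalytic A subunit, encoded by PPP3CA, PPP3CB or PPP3CC, and a regulatory B subunit. It removes phosphates from the NFAT transcription factors, which then enter the nucleus, and kinases such as GSK3 and casein kinase 1 put the phosphates back and return NFAT to the cytoplasm. The RCAN proteins bind calcineurin and can inhibit it. In endothelial cells, VEGFA acting through its receptor raises calcium and is known to induce the short form of RCAN1, which starts at exon 4 behind a promoter rich in NFAT sites and forms a feedback loop. The long form starts at exon 1 from a separate promoter.

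The sequences before both starts are shown because the values below separate them. Each runs 5′ to 3′ on the minus strand of chromosome 21 (GRCh37/hg19, read from the reference genome) and ends 1 base before the RefSeq start. Capitals mark GGAAA, the core of an NFAT site, on either strand (TTTCC is the same core on the other strand). TGANTCA, the AP-1 motif, was also searched and would be in capitals too.
Exon 1 start, chr21:35987442-35987691: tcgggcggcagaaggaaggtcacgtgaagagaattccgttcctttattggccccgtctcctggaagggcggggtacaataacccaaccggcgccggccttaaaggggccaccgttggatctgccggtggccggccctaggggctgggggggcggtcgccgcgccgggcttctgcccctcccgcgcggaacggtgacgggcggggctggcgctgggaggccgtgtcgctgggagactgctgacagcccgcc
Exon 4 start, chr21:35899309-35899558: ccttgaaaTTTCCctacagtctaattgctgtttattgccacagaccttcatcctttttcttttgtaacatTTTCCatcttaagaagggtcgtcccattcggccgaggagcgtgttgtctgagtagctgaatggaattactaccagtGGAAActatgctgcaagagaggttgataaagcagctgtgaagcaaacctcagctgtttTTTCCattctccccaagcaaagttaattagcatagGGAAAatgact

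The 250 bases before exon 4 hold GGAAA 5 times, on one strand or the other, and those before exon 1 hold it 0 times. Of the 13333 tested genes, 53.6% have at least 1 match in a window of the same length and 0.458% have 5 or more. Those windows lie before the transcript that stands for each gene, and by that rule RCAN1 (NM_001285389) has 0 matches in 250 bases. Both windows shown were instead picked by their start, and the exon 4 promoter was known to be rich in NFAT sites. The rank of the exon 4 window is therefore a description and no test. In 1000 bases the exon 4 start has 11 matches and the exon 1 start 3, where the median tested gene has 3 and 0.383% of genes have 11 or more. The exon 4 window is poorer in G and C (42%) than the median window of 62.4%, and GGAAA is itself rich in A. TGANTCA was found in neither window, at 250 or 1000 bases. A match here is a run of letters, not a bound site.

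The libraries held between 6743971 and 24197620 reads, recovered from the FPKM values (reads divided by transcript length in kilobases and by the size of the library). The shallowest was VEGFC-LNC clone 3. A gene was tested when it reached 1 cpm (FPKM without the division by length) in at least 2 libraries, and differentially expressed genes (DEGs) were those that changed 1.5-fold or more, either way, with a false-discovery rate (FDR) under 0.05 in a limma fit over all tested genes. By that rule 2.75% of tested genes were DEGs upon VEGFA-LNC deletion, 0.473% upon VEGFC-LNC deletion and 12.7% between the control sets. The counts depend on single controls. Without VEGFA-LNC control 1 or 2 there were 46 or 34 DEGs between the control sets and 12 or 6 upon VEGFA-LNC deletion, and without VEGFC-LNC control 1 or 2 there were 33 or 77 and 100 in either case. Without VEGFA-LNC clone 1 there were 3068 and 1732. Of the DEGs between the control sets 389 were higher and 1301 lower in the VEGFC-LNC controls, and with libraries scaled by the median of ratios, which moved the median gene from -0.11 to 0 on the log2 scale, 586 were higher and 906 lower. Upon VEGFC-LNC deletion the split of 20 higher and 43 lower became 38 and 44. Of the 10 endothelial markers 9 were tested and CLDN5 was listed at 0 in every library, with summed FPKM between 285 and 961 over the libraries. None of 6 blood cell markers passed the filter. The keratins KRT7, KRT8 and KRT18 of the epithelial list were expressed, with the list summing to between 439 and 1310 FPKM, while KRT19, EPCAM and CDH1 did not pass the filter. The A subunit genes, NFATC2, RCAN3 and RCAN1 passed the filter in all 10 libraries, as did NFATC1 and NFATC4, and RCAN2 did not pass.

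RCAN1, the inhibitor of calcineurin on chromosome 21 (NM_001285389, hg19 chr21:35888740-35986142, minus strand), took a different level in each of the 4 groups. Its FPKM was 39.8 and 38.1 in the VEGFA-LNC controls and 10.4, 9.14 and 10.8 in the VEGFA-LNC clones. In the other set it was 5.75 and 5.97 in the controls and 21.5, 13.5 and 20.4 in the clones. The order was therefore VEGFA-LNC controls (39 ± 1.2 FPKM, SD, n = 2), VEGFC-LNC clones (18.4 ± 4.33, n = 3), VEGFA-LNC clones (10.1 ± 0.856, n = 3) and VEGFC-LNC controls (5.86 ± 0.162, n = 2), and no neighbouring groups overlapped. The values rest on 120 to 1893 reads per library.

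Upon VEGFA-LNC deletion RCAN1 fell by 1.94 on the log2 scale (SE 0.2, 3.83-fold lower, limma FDR = 0.00377), and all 3 clones lay below both controls. Lower DEGs made up 2.02% of tested genes in this comparison. The single clones differed from the mean of the controls by -1.89, -2.08 and -1.85. A larger absolute change was estimated for 158 tested genes (1.19%). Without VEGFA-LNC control 1 the estimate was -1.91 and the limma FDR 0.0835, and without control 2 they were -1.97 and 0.0881, so that the call needs both controls.

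Upon VEGFC-LNC deletion the RCAN1 level was 3.05-fold that of the controls (log2 difference 1.61, SE 0.2), with single clones at 1.86, 1.19 and 1.78 above the control mean. Since RCAN1 was chosen with this difference known, it is given as a description with no test, and the same holds for the difference between the deletion effects of 3.55 (SE 0.28). Clone 2 was the lowest of the 3 clones. The SD of the log2 values over these clones, 0.366, was above that of 70.2% of tested genes, whereas over the VEGFA-LNC clones it was 0.124 and above that of 16.2%.

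The largest of the 3 estimates for RCAN1 was that between the control sets. The level in the VEGFC-LNC controls was 6.55-fold lower than in the VEGFA-LNC controls (log2 difference -2.71, SE 0.22), a difference exceeded in size by 100 tested genes (0.75%). Each deletion comparison shares its controls with this one, so that the 3 differences are not independent. The VEGFC-LNC controls also enter the difference by which RCAN1 was chosen, and the control difference is therefore a description with no test. When the clones were compared with all 4 controls together, the RCAN1 difference was -0.58 for VEGFA-LNC (limma FDR = 0.73) and 0.25 for VEGFC-LNC. Of 7 markers of fibroblasts and smooth muscle 4 were tested, and their summed level was 20.7 to 21 FPKM in the VEGFA-LNC and 1.2 to 1.69 in the VEGFC-LNC controls, with 8.56 to 60.5 in VEGFA-LNC and 1.65 to 19.7 in VEGFC-LNC clones. Nearly all of the sum in the VEGFA-LNC controls was ACTA2, a smooth muscle actin, at 19.8 and 19.5 FPKM there and 0.95 and 0.659 in the VEGFC-LNC controls (log2 difference -4.47, limma FDR = 0.0412). COL1A1, a collagen chain, was at most 0.332 FPKM and was lower between the control sets (-1.34, limma FDR = 0.037) and upon VEGFA-LNC deletion (-1.5, limma FDR = 0.0422). MYH11 (-0.12, limma FDR = 0.863) and PDGFRB (-0.72, limma FDR = 0.221) did not pass between the control sets. COL1A2, COL3A1 and DES did not pass the filter, and the part of these genes in the RCAN1 result was not tested.

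**Figure D1:**
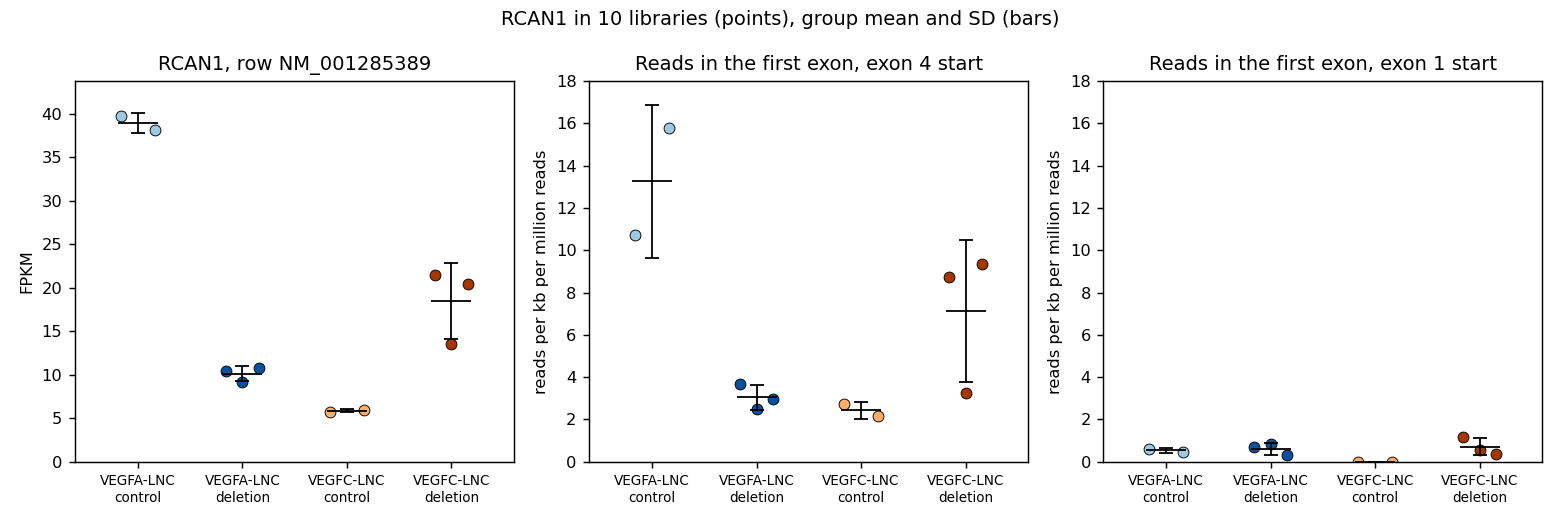
RCAN1 in each library (points) by group, with the group mean and SD as bars. The left panel gives FPKM of the transcript used, from 5.75 in a VEGFC-LNC control to 39.8 in a VEGFA-LNC control, and the others give reads in the first exon of the exon 4 and the exon 1 form on the scale of FPKM, with a shared vertical axis. The group means of the exon 4 form follow the order of the left panel and the exon 1 form stays at or below 1.17.

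Of the 13333 tested genes, 6 (0.045%) had the 4 groups in this order with no overlap. The order was set from the values of RCAN1, the difference that chose it included, so that these counts describe the pattern and do not test it. Beside RCAN1 they included HMOX1, which encodes heme oxygenase 1, PRNP, the prion protein gene, PTGR1 and SMPD1, an acid sphingomyelinase. They were named after their values were seen. A broader pattern, all VEGFA-LNC clones below and all VEGFC-LNC clones above their own controls, was held by 535 genes (4.01%), and by 33 (0.248%) with a change of at least 2-fold in both.

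The table holds 8 RefSeq transcripts of RCAN1, and 7 of them share their last exons and differ in the first. Reads that a transcript held beyond the lowest of the 7 in the same library were taken as reads of its first exon. The exon 4 form (NM_203418, first exon of 348 bases) had 65 and 124 such reads in the VEGFA-LNC controls and 19, 16 and 18 in the VEGFA-LNC clones. It had 9 and 18 in the VEGFC-LNC controls and 68, 21 and 22 in the VEGFC-LNC clones. On the scale of FPKM, divided by the length of that exon, these were 10.7 and 15.8, then 3.67, 2.49 and 2.97, then 2.72 and 2.14, and last 8.72, 3.26 and 9.37. The VEGFA-LNC controls were above all other libraries, and the order of the group means (13.2, 7.12, 3.04 and 2.43) was that of the whole gene, although VEGFC-LNC clone 2 lay among the VEGFA-LNC clones.

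The exon 1 form (NM_004414, first exon of 383 bases) had 4 and 4 reads in the VEGFA-LNC controls, 4, 6 and 2 in the VEGFA-LNC clones, 0 and 0 in the VEGFC-LNC controls and 10, 4 and 1 in the VEGFC-LNC clones. In no library was its density above 9.05% of that of the shared exons, against 23.6% to 46.2% for the exon 4 form. The read density of the exon 4 form's first exon was thus the higher of the pair in every library. At 0 to 10 reads a difference of the exon 1 form between groups was not detectable at this depth. The first exons of the remaining starts held between 0 and 18 reads in a library. Since most reads fall in the shared exons, the transcripts gave nearly the same differences, from -1.95 to -1.92 upon VEGFA-LNC deletion, 1.39 to 1.62 upon VEGFC-LNC deletion and -2.72 to -2.33 between the control sets. The outermost value in the latter 2 ranges was that of NM_001331016, which lacks the shared last exon.

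The genes around RCAN1 had medians close to those of all genes. The 51 other tested genes within 5 Mb on chromosome 21 had a median log2 difference of -0.04 upon VEGFA-LNC deletion (all tested genes -0.06), -0.11 upon VEGFC-LNC deletion (-0.09) and -0.1 between the control sets (-0.11). RCAN1 was below all 51 upon VEGFA-LNC deletion. It was above all 51 upon VEGFC-LNC deletion, the difference that chose it, and below all 51 between the control sets, which share those controls, so that the latter ranks are no test.

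RCAN3 (NM_001251982, chr1:24840804-24863510, plus strand), a relative of RCAN1 that also binds calcineurin, ran the other way between the control sets. It measured 5.11 and 4.84 FPKM in the VEGFA-LNC controls and 7.21 and 6.63 in the VEGFC-LNC controls, with no overlap (log2 difference 0.47, SE 0.17, limma FDR = 0.103). Its clones were at 5.43, 5.83 and 6.36 for VEGFA-LNC and 5.79, 7.62 and 6.24 for VEGFC-LNC. The VEGFA-LNC clones all lay above their controls (0.23, limma FDR = 0.455), and neither difference passed the test. RCAN2 (NM_001251973, chr6:46188467-46459804, minus strand) had 2 reads in VEGFA-LNC control 2 (0.027 FPKM) and 0 in the other 9 libraries. A count of 0 allows up to 3 reads, which is 0.133 FPKM in the shallowest library and counts sampling error only.

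Of the catalytic subunits, PPP3CA and PPP3CB had means of 9.4 and 8.44 FPKM over the 10 libraries and PPP3CC had 4.06. PPP3CC (NM_001243975, on chromosome 8) was 5.56 and 5.51 FPKM in the VEGFA-LNC controls and 3.49, 3.93 and 3.94 in the VEGFA-LNC clones, which all lay below. It was 4.12 and 3.72 in the VEGFC-LNC controls and 4.29, 2.69 and 3.32 in their clones. The differences were -0.54 upon VEGFA-LNC deletion (SE 0.2, limma FDR = 0.182, unadjusted p = 0.0241), -0.21 upon VEGFC-LNC deletion (limma FDR = 0.57) and -0.49 between the control sets (SE 0.22, limma FDR = 0.162). None passed the test over all genes.

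PPP3CB (NM_001289968, chr10:75203538-75255782, minus strand) was 10.3 and 10.1 FPKM in the VEGFA-LNC controls, 9.98, 8.21 and 7.52 in their clones, 8.22 and 8.68 in the VEGFC-LNC controls and 6.79, 7.55 and 6.98 in their clones. Both sets of clones lay wholly below their own controls, by -0.26 and -0.25 (limma FDR = 0.369 and 0.373). PPP3CA (NM_001130691, chr4:101944587-102268628, minus strand) was 9.84 and 9.83 in the VEGFA-LNC controls, 11.4, 10.4 and 8.59 in their clones, 10 and 9.58 in the VEGFC-LNC controls and 9.13, 5.86 and 9.41 in their clones. Only VEGFC-LNC clone 2 fell outside the range of 8.59 to 11.4 that the other 9 libraries spanned. PPP3CA differences were 0.03, -0.3 and -0.01 in the VEGFA-LNC, the VEGFC-LNC and the control comparison (limma FDR 0.462 to 0.991).

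NFATC2 (NM_001258295, chr20:50003494-50179370, minus strand) was the most abundant of the 3 NFAT factors followed here, with a mean of 3.54 FPKM, and had its highest group where RCAN1 had its lowest. It measured 5.16 and 5.15 FPKM in the VEGFC-LNC controls and 2.89, 2.66 and 3.04 in the VEGFC-LNC clones, all below. In the VEGFA-LNC set it was 3.45 and 3.03 in the controls and 1.65, 5 and 3.4 in the clones. The VEGFA-LNC clones thus spread on both sides of their controls, and their SD of log2 values, 0.781, was above that of 88.2% of tested genes. The VEGFC-LNC difference was -0.83 (SE 0.37, 1.78-fold lower, limma FDR = 0.268) and the control difference 0.66 (SE 0.4, limma FDR = 0.302). Without VEGFA-LNC clone 1, the library at 1.65 FPKM, the spread shared by all groups was smaller and the estimates stayed at -0.83 (limma FDR = 0.0288) and 0.66 (limma FDR = 0.041), and the difference between the deletion effects went from -0.75 (limma FDR = 0.477) to -1.17 (limma FDR = 0.0464). The NFATC2 calls therefore depend on that library.

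NFATC4 (NM_001198966, chr14:24838288-24848811, plus strand) was 1.11 and 1.24 FPKM in the VEGFA-LNC controls, 0.853, 0.996 and 1.25 in their clones, 1.61 and 1.68 in the VEGFC-LNC controls and 1.59, 1.73 and 1.72 in their clones. All 5 libraries of the VEGFC-LNC set lay above all 5 of the VEGFA-LNC set, and clones and controls overlapped within each set. The share of all tested genes split in this way was not counted, so whether the split is unusual was not tested. The 82.9% of tested genes that did not overlap between the control sets is for 2 against 2 libraries, an easier condition. The difference between the control sets was 0.46 (SE 0.21, limma FDR = 0.184). NFATC1 (NM_001278675, chr18:77160274-77228002, plus strand), a factor known for its part in heart valve endothelium, was the least expressed of the tested genes here at 14 to 70 reads per library. It was 1 and 0.892 FPKM in the VEGFA-LNC controls, 0.651, 0.987 and 0.468 in their clones, 0.939 and 1.12 in the VEGFC-LNC controls and 0.795, 0.901 and 0.804 in their clones. The NFATC1 differences were -0.43, -0.27 and 0.11 in the VEGFA-LNC, the VEGFC-LNC and the control comparison (limma FDR 0.433 to 0.843).

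**Figure D2:**
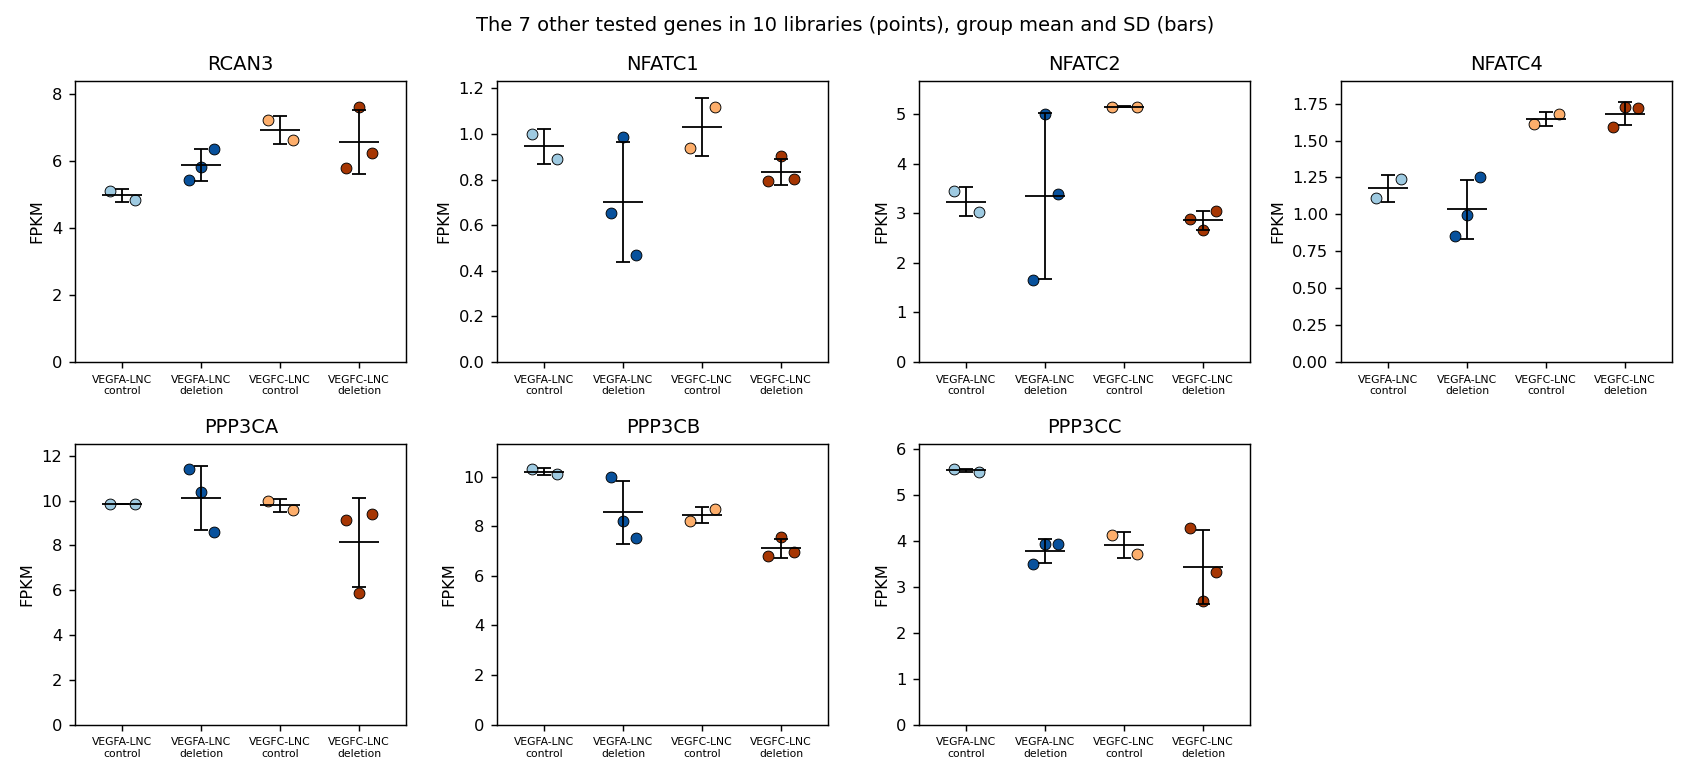
FPKM of the 7 other tested genes in each library (points) by group, with the group mean and SD as bars and each vertical axis starting at 0. NFATC4 is higher in all 5 VEGFC-LNC libraries than in the VEGFA-LNC libraries, and the share of all tested genes split in this way was not counted. NFATC2 is highest in the VEGFC-LNC controls at 5.15 and 5.16, and VEGFC-LNC clone 2 is low for PPP3CA at 5.86.

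Beside RCAN1, none of the 7 tested genes was a DEG in any of the 4 comparisons (limma FDR 0.182 to 0.958 upon VEGFA-LNC deletion, 0.268 to 0.951 upon VEGFC-LNC deletion, 0.103 to 0.991 between the control sets and 0.473 to 0.98 for the difference between the deletion effects, where 1.46% of tested genes were DEGs). At an unadjusted p under 0.05 there was 1 gene upon VEGFA-LNC deletion (PPP3CC), 0 upon VEGFC-LNC deletion, 1 between the control sets (RCAN3) and 0 for the difference. The share of all tested genes at that unadjusted threshold was not counted, here or for the lists below. By limma voom on recovered reads the 7 genes also gave 0 DEGs in these comparisons. Clones and controls did not overlap for 3 of these 7 genes upon VEGFA-LNC deletion and for 4 of 7 upon VEGFC-LNC deletion, where 39% and 47.8% of all tested genes did not overlap. Between the control sets it was 5 of 7 against 82.9%. The median absolute log2 difference of the 7 genes, 0.233, 0.248 and 0.458 in these comparisons, stood beside 0.269, 0.281 and 0.39 over all tested genes. These shares and medians are near those of all genes.

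**Figure D3:**
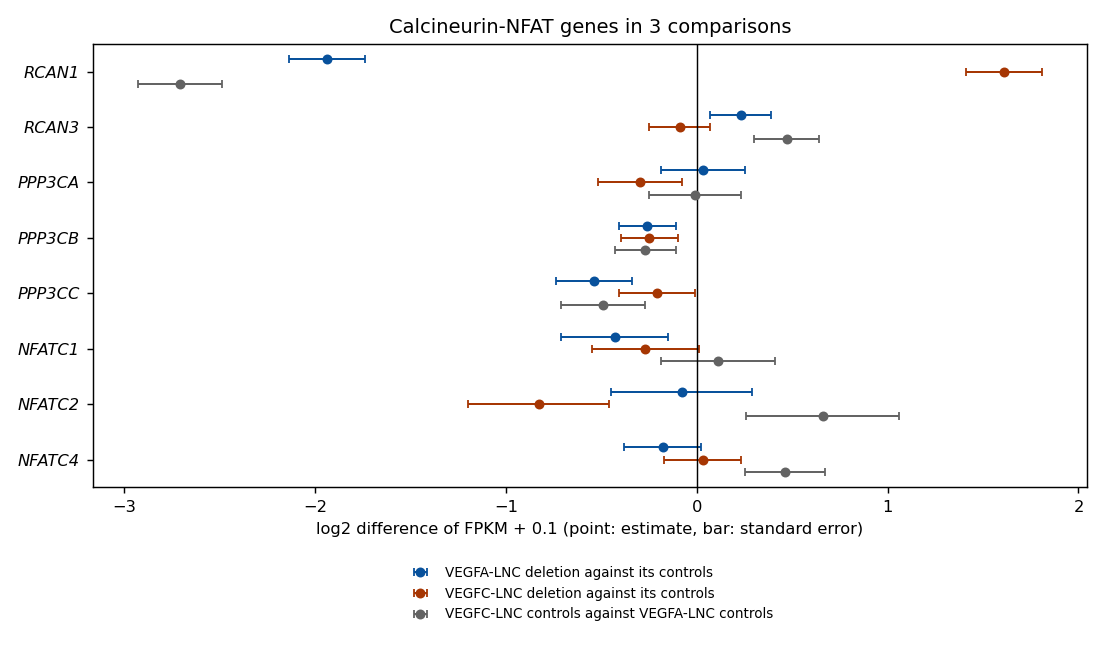
Log2 difference of FPKM + 0.1 for the 8 tested genes in 3 comparisons, with the limma estimate as a point and its standard error as a bar. RCAN1 is at -1.94, 1.61 and -2.71 and the other 7 genes lie between -0.83 and 0.66.

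Of 60 further genes of the pathway, listed in 4 groups, 49 were tested. By limma 0 of them were DEGs upon VEGFA-LNC deletion (15 at an unadjusted p under 0.05, and 1 DEG by voom) and 0 upon VEGFC-LNC deletion (12, and 0 by voom). Without the share of all tested genes at that unadjusted threshold, the 15 and 12 are no result about the pathway. Between the control sets 11 (22.4%) were lower DEGs in the VEGFC-LNC controls, as were 9.76% of all tested genes, and 0 were higher DEGs. Without any one of the 4 controls 0 of the 49 passed in this comparison, and without VEGFA-LNC clone 1 there were 18. The levels of the calcium and calmodulin group were led by CALM2, a calmodulin gene, at 513 and 507 FPKM in the VEGFA-LNC and 310 and 317 in the VEGFC-LNC controls (log2 difference -0.7, limma FDR = 0.0323). Of its 13 tested genes 8 were lower and 5 higher in the VEGFC-LNC controls, and 3 of the lower ones passed the test, the others being STIM1, the calcium sensor of the endoplasmic reticulum (-0.8, limma FDR = 0.0211), and TRPC1, a cation channel (-1.12, limma FDR = 0.0148). CALM3 (0.49) did not pass the test (limma FDR = 0.132).

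Among 10 tested calcineurin and NFAT proteins and inhibitors outside the 9 genes, 6 were lower and 4 higher in the VEGFC-LNC controls, and 2 of the lower ones passed the test, CHP1, a calcineurin-like protein (-0.68, limma FDR = 0.0234), and HOMER3, a scaffold that can compete with calcineurin for NFAT (-0.78, limma FDR = 0.0215). PPP3R1, the regulatory B subunit, differed by -0.05, -0.06 and -0.15 in the VEGFA-LNC, the VEGFC-LNC and the control comparison, none past the test. NFATC3, a further NFAT factor, differed by 0.05, -0.44 and -0.14, and these did not pass either. NFAT5 differed by -0.48, -0.76 and 0.22, also not past the test. Of the 8 genes for the kinases and the export receptor that return NFAT to the cytoplasm, 0 passed in any comparison, with CSNK1A1 at -0.42 and XPO1 at 0.59 between the control sets (limma FDR = 0.111 and 0.141).

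Of the NFAT-linked target genes of endothelial cells, 6 of 18 tested passed between the control sets, all 6 lower in the VEGFC-LNC controls, as RCAN1 was. The list was drawn up with earlier results of these data known, so that its direction is no independent evidence. All 18 had a lower level in both VEGFC-LNC controls than in both VEGFA-LNC controls (49.2% of all tested genes did), with a median log2 difference of -1.69 beside -0.11 over all tested genes. The number that passed was 5 when scaled by the median of ratios, 0 without any one of the controls and 11 without VEGFA-LNC clone 1, and all 18 had a negative difference in each of these fits. Those that did not pass included DUSP5 (-0.17, limma FDR = 0.706) and ADAMTS1 (-0.21, limma FDR = 0.844). CXCL8, which encodes the neutrophil attractant interleukin-8, was 33 and 33.1 FPKM in the VEGFA-LNC and 0.93 and 1.22 in the VEGFC-LNC controls (-4.83, SE 0.86, limma FDR = 0.0125). TNFAIP3, an inhibitor of NF-κB signaling, was 12.8 and 12.8 against 0.855 and 0.795 (-3.8, SE 0.49, limma FDR = 0.00503). The others were IL6 (-3.17), NR4A3 (-1.78), HBEGF (-1.78) and F3, which encodes tissue factor (-1.68), with limma FDRs of 0.0337, 0.0471, 0.014 and 0.0326. Reads were few in the VEGFC-LNC controls, 3 and 10 for IL6, 2 and 6 for NR4A3 and 9 and 13 for F3, but 342 and 930 for HBEGF. Many of these genes, CXCL8, IL6 and TNFAIP3 among them, are also known targets of NF-κB.

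Within the sets the targets did not follow RCAN1 to the test's threshold. Each deletion comparison shares its controls with that between the control sets, where all 18 targets differed in the same direction. Since the list was also drawn up with earlier results known, the counts that follow are no independent evidence. Upon VEGFA-LNC deletion 14 of the 18 were lower and 4 higher (median -0.78, all tested genes -0.06), 8 had all clones below both controls (23.7% of tested genes did), and 0 passed (6 at an unadjusted p under 0.05). The smallest FDR was that of TNFAIP3 (-1.76, limma FDR = 0.0729), which passed by voom. CXCL8 shows the spread of the clones, with 3.56, 8.17 and 38.2 FPKM. Upon VEGFC-LNC deletion 11 were higher and 7 lower (median 0.25, all tested genes -0.09), 7 had all clones above both controls (17.2% of tested genes did), and 0 passed (4 at an unadjusted p under 0.05, and 0 by voom). CXCL8 was 5.44, 5.09 and 3.06 FPKM in these clones, above the controls and below the VEGFA-LNC controls (1.95, limma FDR = 0.242). EGR1, an early growth response factor, was lower in both sets of clones, by -2.21 and -1.59 (limma FDR = 0.19 and 0.326), and thus did not have the opposite signs that RCAN1 had.

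**Figure D4:**
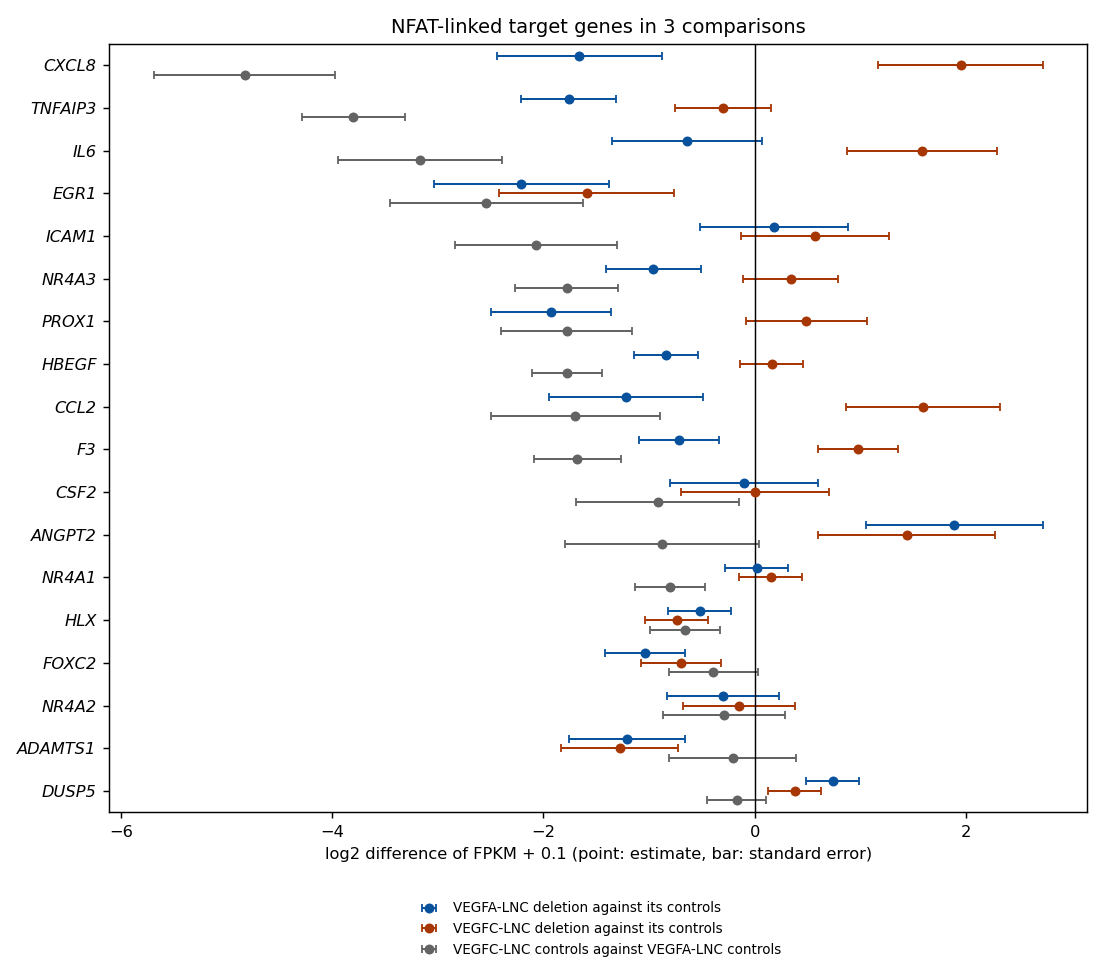
Log2 difference of FPKM + 0.1 for the 18 tested NFAT-linked target genes in 3 comparisons, with the limma estimate as a point and its standard error as a bar, ordered by the difference between the control sets. All 18 gray points (control sets) lie below 0, from -4.83 for CXCL8 to -0.17 for DUSP5, while the deletion comparisons scatter on both sides.

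VEGFA, the ligand known to act on RCAN1 through calcium, had its 4 group means in the order of RCAN1. It was 10.2 and 9.62 FPKM in the VEGFA-LNC controls, 8.85, 7.83 and 5.25 in the VEGFC-LNC clones, 4.68, 4.71 and 7.35 in the VEGFA-LNC clones and 3.23 and 3.84 in the VEGFC-LNC controls. The 2 groups of clones overlapped, and the share of all tested genes with their means in this order was not counted. The order includes the difference that chose RCAN1, and an action of VEGFA on RCAN1 in these cells was not tested. VEGFA differed between the control sets (-1.46, SE 0.29, limma FDR = 0.0172) and did not pass the test upon VEGFA-LNC deletion (-0.85, limma FDR = 0.13) or VEGFC-LNC deletion (1.0, limma FDR = 0.127). Over the 10 libraries the Pearson correlation of VEGFA with RCAN1 on the log2 scale was 0.867, the place 63 of 13332 genes. VEGFC was lower upon VEGFC-LNC deletion, at a change from 9.47 and 10.5 FPKM to 5.38, 4.84 and 4.63 (-1.0, SE 0.12, limma FDR = 0.0145). It was also lower in the VEGFC-LNC than in the VEGFA-LNC controls (-0.68, limma FDR = 0.0172). Upon VEGFA-LNC deletion VEGFC went from 16.1 and 16 FPKM to 11.6, 11.4 and 10.8 (-0.51, limma FDR = 0.0666, not past the test). The correlation of VEGFC with RCAN1 was 0.12. Both the VEGFA call between the control sets and the VEGFC call upon VEGFC-LNC deletion were lost without any one of the 4 controls. For the VEGFC difference between the control sets this was not examined.

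The genes most like RCAN1 over the 10 libraries included NUDT14 (r = 0.979), PVR (0.974), PRNP (0.968) and PTGR1 (0.968), and those running most against it were PHF3 (-0.942), IPO8 (-0.94) and TMOD3 (-0.938). The points are 10 libraries in 4 groups, so that such values mainly describe the group levels. PVR, which encodes a cell adhesion receptor, had means of 103 FPKM in the VEGFA-LNC controls, 60.7 in the VEGFC-LNC clones, 44 in the VEGFA-LNC clones and 26.9 in the VEGFC-LNC controls. Among the 7 other tested genes of the group PPP3CC had the highest correlation with RCAN1 (0.538) and RCAN3 the lowest (-0.685), with NFATC2 at -0.403. Over the 49 further pathway genes it ran from -0.661 for DYRK2 to 0.81 for HOMER3, with CALM2 at 0.8 and STIM1 at 0.796.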

How the data were processed

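RNA-Seq had been measured in 10 libraries of ribosomal RNA-depleted total RNA, and the labels gave the group of each. The authors deposited 1 table of FPKM values per RefSeq transcript on hg19 (RPKM in the name of the table, which for reads from 1 end means the same). The study's methods and processing notes name Trim Galore 0.4.4 and STAR 2.5.4b on GRCh37. They also describe assignment of reads to Gencode genes by featureCounts, whereas the deposited table lists RefSeq transcripts. How that table was made from the alignments, and whether by strand, is not given in the sources used here, so reads of overlapping genes may not be separated. FPKM multiplied by length gave whole reads for all values checked, from which depth was recovered. The lowest row per library served as the shared exons of RCAN1.

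Of 65572 rows 42 without a gene name were left out. Values were fitted as log2(FPKM + 0.1) with limma 3.58.1 in R 4.3.3 (4 groups, eBayes with trend, 6 residual degrees of freedom) over 13333 genes, with Benjamini-Hochberg FDRs. Fold changes are on that scale and understate those of low genes. The members of the group and all lists were chosen with earlier results of these data known. Named genes were all members, list genes called upon a deletion or, up to 4 a list, the most expressed, and the genes most like RCAN1. Further list genes were named after their values were seen, and a few genes that these rules take are not reported here. The fit was tested on simulated data with large planted changes. These data gave each gene the same spread in all groups, which the libraries do not have, so the test does not cover the FDRs reported here. Replicates differed by more than counting error and were all counted, but controls far less than clones. Chi-square per degree of freedom was 3.76 and 1.54 for the VEGFA-LNC and VEGFC-LNC control pairs and 18.3 to 138 for pairs of clones. The median SD of log2 values was 0.065 and 0.0639 in these controls and 0.287 and 0.249 in their clones. The controls may thus be close to repeat libraries, and the fit shares its spread over all groups. Alternatives were other pseudocounts (1, 0.01), filters, scaling, transcripts and controls, voom on recovered reads, a replicate block and the omission of each library.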

Additional observations from a re-analysis of the deposited data

Results flagged for a closer look

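RCAN1 and VEGFA each had all VEGFA-LNC clones below and all VEGFC-LNC clones above their own controls, a pattern held by 535 tested genes (4.01%). For RCAN1 the log2 differences were -1.94 and 1.61, and for VEGFA they were -0.85 and 1.0. By RT-qPCR in deletion clones the paper reports higher VEGFA mRNA upon VEGFA-LNC deletion, the opposite direction. It reports a rise with antisense oligonucleotides against VEGFA-LNC as well. In its own RNA-Seq analysis VEGFA did not reach the thresholds for a DEG. Neither VEGFA difference passed the test here (limma FDR = 0.13 and 0.127), and both are of the transcript NM_001287044 only. The difference between the deletion effects was not tested for RCAN1, which was chosen with it known. For VEGFA it was 1.85 (SE 0.38, limma FDR = 0.0559). The control sets of both genes lay apart in the same order, by -2.71 and -1.46, and these controls enter each of the deletion comparisons.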

How the results depend on the processing

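RCAN1 kept its direction in each alternative and comparison. Against all 4 controls its differences were -0.58 and 0.25 (FDR = 0.73 for VEGFA-LNC, no test for VEGFC-LNC). With control pairs averaged they were -1.94 (limma FDR = 0.276) and, between the control sets, -2.71 (no test). The latter was -2.54 with a pseudocount of 1 and -2.61 by median of ratios. With 1 library left out, RCAN1 ranged from -1.99 to -1.87 upon VEGFA-LNC deletion, from 1.48 to 1.82 upon VEGFC-LNC deletion, from -2.74 to -2.68 between the control sets and from 3.42 to 3.76 in the difference between the effects.

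Counts of DEGs moved far more. Upon VEGFA-LNC deletion 367 became 654 with no filter, 551 by voom, 151 with the replicate block, 29 against all 4 controls and 0 with control pairs averaged. Upon VEGFC-LNC deletion 63 became 20 with the block and 1 with averaged pairs. Between the control sets 1690 became 0 with averaged pairs. In the difference 194 became 329 with no filter, 86 with the block and 0 with averaged pairs. With 1 library left out they ranged from 6 to 1732, from 5 to 1158, from 33 to 3068 and from 5 to 694. Replicate numbers do not pair the libraries (correlations of deviations from -0.04 to 0.05), and the block changed no call of the members.

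Signs turned for differences that lay between -0.09 and 0.23 as reported, none of them past the test. RCAN3 went to 0.00 upon VEGFA-LNC and 0.15 upon VEGFC-LNC deletion against all 4 controls, and to 0.00 upon VEGFC-LNC deletion by median of ratios. NFATC4 went to -0.05 upon VEGFC-LNC deletion with the block, PPP3CA to 0.1 between the control sets by median of ratios and PPP3CB to -0.24 in the difference with the longest transcript. Leaving out 1 library gave NFATC1 from -0.01 to 0.22 between the control sets and -0.06 to 0.41 in the difference, NFATC2 from -0.43 to 0.34 and PPP3CA from -0.06 to 0.14 upon VEGFA-LNC deletion, NFATC4 from 0.00 to 0.06 upon VEGFC-LNC deletion, PPP3CA from -0.04 to 0.03 between the control sets and PPP3CB from -0.08 to 0.13 in the difference. The causes were not tested. Depth limits the first exons of RCAN1, NFATC1 and RCAN2 most.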
